A study of Rattus norvegicus with 23 samples.

Results

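The mRNAs of the cytosolic ribosomal proteins were followed across 23 peripheral blood mononuclear cell (PBMC) samples from Wistar rat pups aged 21 days. Genes were taken by name from the array design: Rpl or Rps with a number and at most 1 letter, or the stalk proteins Rplp0, Rplp1 and Rplp2. Kinases of the Rps6k family and pseudogene names were left out. A gene also needed a Cy5 signal well above background on at least 12 of 23 arrays, and the brightest probe stood for each gene. This gave 71 of 71 names, 41 of the large and 30 of the small subunit, out of 20178 features tested. All 106 probes carrying these names passed the signal rule, and all 71 probes used were above background on 23 of 23 arrays, so no gene was lost to low signal. Rplp0 was not found under that name, and ribosomal proteins with other names, such as Rpsa and Fau, lie outside the rule.

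The pups were suckled by dams fed standard chow freely (control, 11 dams) or given a diet cut by 20% in calories (CR, 5 dams) from day 1 after delivery to weaning at day 21. There were 6 male and 6 female pups of control dams, and 5 male and 6 female pups of CR dams, and pups had free access to food when killed. PBMCs came from trunk blood over a Ficoll gradient, and each array set 1 pup (Cy5) against a pool of all samples (Cy3), with no dye swap. Values are log2 ratios of pup to pool unless stated otherwise. The 16 litters are not tied to pups in the labels, so CR pups came from at most 5 dams, litter mates may be among the samples, and p-values may be too small. In bulk PBMC RNA, fewer cells of a type and less RNA per cell cannot be told apart.

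A ribosome carries a small subunit, which reads the mRNA, and a large subunit, which joins amino acids. Most of its proteins are needed in equal numbers, and most of their genes are expressed together at high level in nearly all cells. In mammals their mRNAs start with a run of pyrimidines, the 5′ terminal oligopyrimidine (TOP) tract, through which nutrient signalling by mTOR and the binding protein Larp1 sets how fast they are translated. Resting lymphocytes hold many of these mRNAs out of translation until they are stimulated.

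The start sites show the sequence that the gene names did not use. RefSeq promoters (GRCr8) matched 58 of the 71 genes. The motif CTTTC, searched on the gene's own strand from 10 bases before to 20 after the start, was found in 23 of 58 (39.7%), against 3.39% of all 33469 promoters. It was in 40% of the large-subunit and 39.1% of the small-subunit promoters. A C/T run of at least 8 bases that overlaps the stretch from 5 bases before to 10 after the start was in 63.8% against 10.6%. The motif CGGAAG, on either strand from 250 bases before to 50 after the start, was in 53.4% against 16.6%. These matches are descriptions of letters in the window. The 15 bases before and 15 after the start follow for 6 genes, a choice made after the values were seen. Capitals mark the longest pyrimidine run that overlaps the stretch from 5 bases before to 10 after the start. In Rps15a, Rpl23 and Rps12 this run ends before the start. Rps21, Rpl35a, Rps15a and Rpl9 followed the other ribosomal protein mRNAs closely from array to array, and Rpl23 did not. Rps12 followed the others most closely, with a run of only 3 pyrimidines. Rps3 and Rpl36, not printed, followed more closely than Rps15a, with runs of 1 and 2.
Rps21, chr3:187724023-187724052 (+): gaacgagccaCTTCCTTTCTgtgttctccg
Rpl35a, chr11:81235007-81235036 (-): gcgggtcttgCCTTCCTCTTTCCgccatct
Rps15a, chr1:181860270-181860299 (-): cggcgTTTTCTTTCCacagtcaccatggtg
Rpl9, chr14:43247575-43247604 (+): gacgaaggacgTTCTCTCTTTgccccatct
Rpl23, chr10:83272170-83272199 (-): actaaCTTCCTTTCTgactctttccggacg
Rps12, chr1:23500060-23500089 (+): gcacagaagCCCagcagagcgcttaaatac

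The level of these mRNAs differed little between arrays after loess. The median was taken over those of the 71 genes with a value on the array. It lay between -0.118 and 0.077 in control males (median 0) and between -0.146 and 0.060 in control females (median -0.0745). It lay between -0.167 and 0.050 in CR females (median -0.009). In CR males the 5 arrays were at 0.015, -0.039, -0.040, 0.174 and 0.134. The 2 highest arrays were thus CR males and the lowest a CR female, and all 4 groups overlapped. These values follow loess normalization, which bends each array's ratios to 0 at every brightness. With the array median set to 0 instead, the same genes lay 0.483 to 1.884 above the array median, and CR males were at 0.707, 1.172, 0.928, 0.483 and 1.375 against 1.081 to 1.884 in control males. Every array thus lay above 0, although the pool held all samples. Most of these genes were bright, up to a mean log2 intensity of 17.38 for Rplp1, although Rpl37a was at 7.174. Median centring leaves any slope of the ratio with brightness in place, and the part of such a slope was not tested. The order of the groups differed between the methods, so the median under each is given for every comparison.

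**Figure D1:**
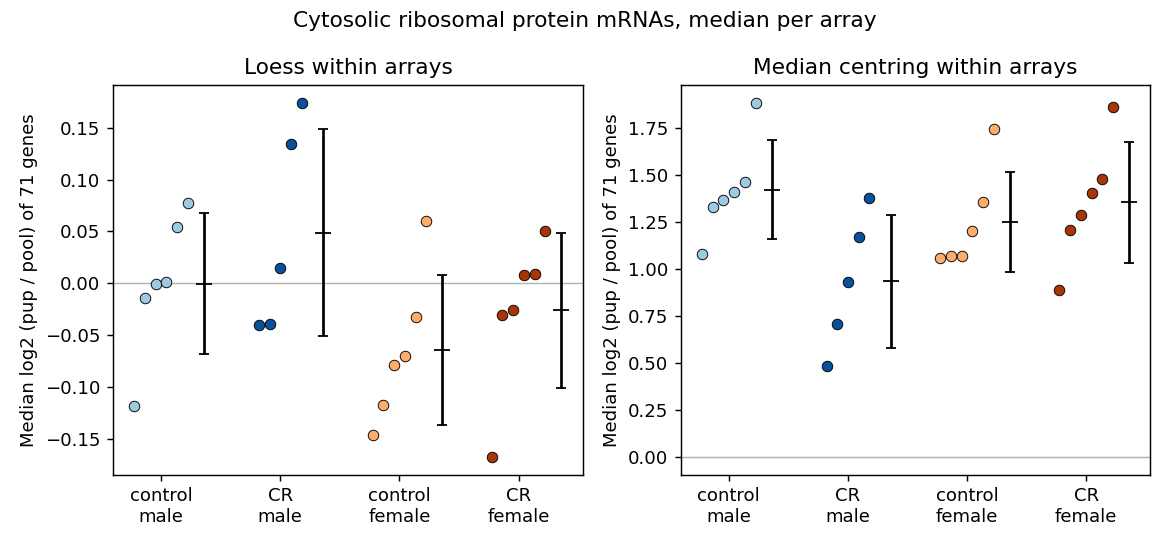
Median log2 ratio of pup to pool over those of the 71 ribosomal protein genes with a value, 1 point per array, by group, after loess (left) and after median centring (right). Bars give the mean ± SD of 6, 5, 6 and 6 arrays; the groups overlap on the left, with CR males reaching 0.174, while CR males hold the lowest value on the right, 0.483.

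Some values were missing. Spots that the scanner software marked as outliers were dropped, which removed 125 of 1633 values (7.65%) of these genes against 0.151% of all feature values. Dropped values fell mostly on 1 slide, where control female 2 lost 41, CR male 1 lost 22, control male 3 lost 21 and CR female 2 lost 19 of 71 genes. The medians of these arrays, and the differences of medians within that slide, thus rest on fewer and partly different genes. In all, 49 genes lacked at least 1 value, and each fit used the arrays that remained. Between 20600 and 24074 probes per array were above background in Cy5, no spot of these genes was saturated, and the residual of all features had a root mean square of 0.118 to 0.25 per array. Precision is limited by how many arrays there are, and the standard error of a ribosomal protein gene had a median of 0.089 for the diet difference in males, 0.087 for that in females and 0.061 for the sex difference.

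After loess, more genes had a small unadjusted p between the sexes than between the diets. Averaged over diets, 59 of 71 genes were higher in males than in females, against 49% of all features, and the median difference was 0.078, against -0.002 over all features. At an unadjusted p under 0.05, 18 genes (25.4%) were higher in males and 0 lower, where the background over all features was 3.64% higher and 3.79% lower. The genes vary together within groups, as given below, so these counts, here and for the diet, are not of independent genes. The median gene per array had a within-group SD of 0.078 after loess. No gene passed limma's adjusted threshold of 0.05, at which 12 of 20178 features (0.0595%) did, and the smallest adjusted p among the 71 was 0.628. The ranges of males and females overlapped for all 71 genes; over all features males lay wholly above females in 0.0149% and wholly below in 0.0248%. The small subunit had 28 of 30 genes above 0, 11 of them at p under 0.05, with a median of 0.091. The large subunit had 31 of 41 above 0, 7 at p under 0.05, with a median of 0.037.

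**Figure D2:**
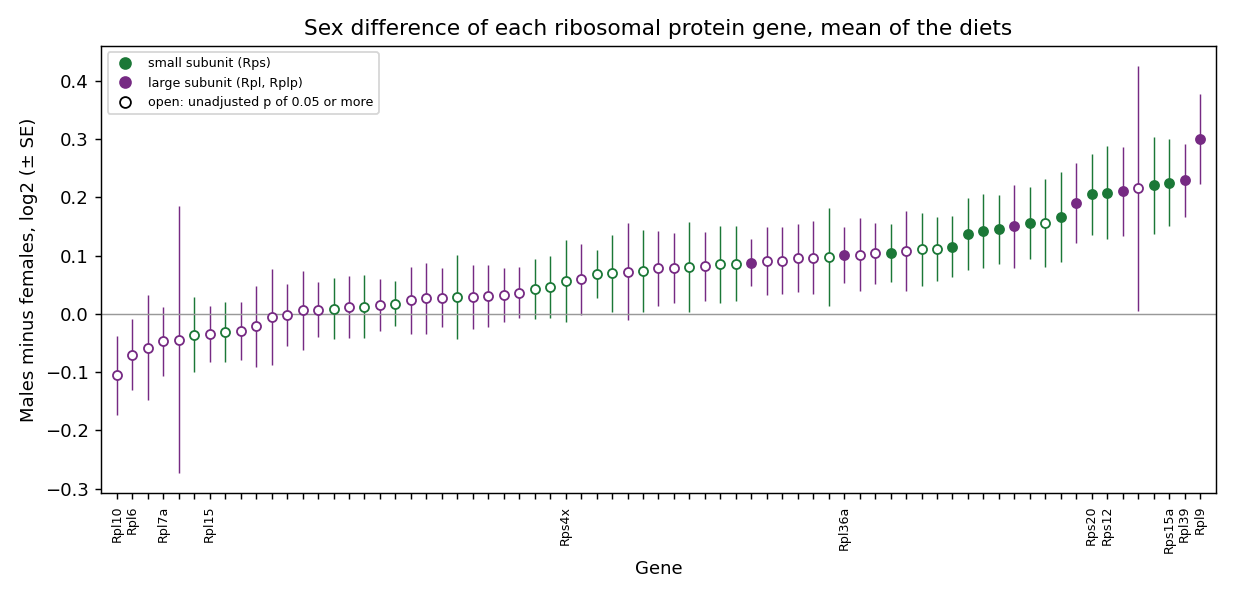
Male minus female difference (log2, mean of the diets) of each of 71 ribosomal protein genes with its standard error, ordered by size, with names for genes whose values the text gives; green marks small-subunit and purple large-subunit genes, and filled points have an unadjusted p under 0.05. The 18 filled points all lie above 0, with Rpl9 highest at 0.30.

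Rpl9, a protein at the base of the large subunit's stalk, had the largest sex difference. Control males were at -0.179, -0.023, -0.033 and -0.177, and CR males at -0.091, -0.371, -0.355, -0.045 and -0.043. Control females were at -0.061, -0.498, -0.618, -0.643 and -0.468, and the 6 CR females lay between -0.634 and -0.209 with a median of -0.42. All 4 measured control males were above 4 of the 5 measured control females and above every CR female, while 2 CR males were as low as CR females and 1 control female was among the males. The difference was 0.30 ± 0.08 (SE, limma adjusted p = 0.628). Its probe, on rn4 at chr1:76274365-76274424, lies on another chromosome than the gene's RefSeq locus on chromosome 14, and RefSeq holds 26 pseudogene entries named after Rpl9, so the transcript measured is uncertain.

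Rpl39, a short X-linked protein that lines the exit tunnel of the large subunit, came next at 0.23 ± 0.06 (limma adjusted p = 0.661). The 6 control males lay between -0.24 and 0.15 with a median of -0.15, and the 4 measured CR males between -0.22 and 0.13. The 5 measured control females lay between -0.58 and -0.13, and the 5 measured CR females between -0.42 and -0.17. All but 1 of the measured females were below both male medians, and the ranges overlapped. Of the small subunit, Rps15a stood at 0.23 ± 0.08, Rps20 at 0.21 ± 0.07 and Rps12 at 0.21 ± 0.08, each with a limma adjusted p of 0.661; Rps20 stood at -0.003 under median centring. The 18 also held Rpl14, Rpl17, Rps14, Rps24, Rps3a, Rps16, Rps25, Rpl24, Rps27a, Rpl37, Rpl36a and Rps29.

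On the other side Rpl10, an X-linked protein that joins the large subunit late in assembly, was lowest in males at -0.11 ± 0.07 (limma adjusted p = 0.756). A second Rpl10 probe, with a within-group correlation of 0.72 with the first, stood at 0.004 ± 0.051. Rpl6, Rpl7a and Rpl15, which had the next smallest p on that side, stood at -0.07 ± 0.06, -0.047 ± 0.059 and -0.034 ± 0.048. None of them had an unadjusted p under 0.05. With the probes used, the 4 genes on the X chromosome in RefSeq gave both signs, with Rpl10 alone lower in males. Rpl36a stood at 0.10 ± 0.05 and Rps4x, the X copy of the Rps4 gene, at 0.056 ± 0.070. Under median centring these 2 were at -0.063 and -0.132. The probe used for Rpl36a matched Rpl36al1 by accession and lies on chromosome 6 in the design, so it may not read the X-linked gene.

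The sex pattern rested on the normalization and on single arrays. With median centring, 11 of 71 genes were above 0, the median was -0.089 (all features -0.029), and 0 genes were higher and 1 lower at p under 0.05 (all features 0.887% and 3.08%). The scanner software's own ratio gave 5 higher and 1 lower (all features 4.6% and 3.18%), and Cy5 alone gave 4 higher (all features 3.38%). Leaving out CR male 5 reduced the 18 to 9, CR male 4 to 10, and control male 1, control male 5 or CR female 5 each to 11. Leaving out CR male 2 raised the count to 24. Within slides, the male minus female difference of the median gene was above 0 on 3 of 5 slides in controls (-0.039 to 0.223) and on 3 of 5 in CR pups (-0.089 to 0.341). With the slides as a block, 14 genes were higher and 0 lower. With array quality weights 35.2% of the genes were higher and 0% lower (all features 2.69% and 3.91%). With the probes of these genes left out of the loess fit, 29.6% were higher and 0% lower (all features 3.7% and 3.73%).

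By diet, most genes lay slightly higher in CR pups after loess, while the counts at p under 0.05 stayed near the background in the fit without array weights. In males 59 of 71 genes were higher in CR than in control pups (all features 47.1%), with a median of 0.069. In females 48 were higher (all features 51.6%), with a median of 0.034. For the mean of the sexes 58 were higher (all features 50.7%), with a median of 0.042. At an adjusted p under 0.05, limma called 0% of features and no ribosomal protein gene in either sex or for the mean. The CR and control ranges overlapped for all 71 genes in each sex. Over all features CR pups lay wholly above controls in 0.144% and wholly below in 0.248% in males, and in 0.0446% and 0.159% in females. At an unadjusted p under 0.05, 2 of 71 genes were higher and 0 lower in males (background 3.01% higher, 4.09% lower), and 1 was higher and 0 lower in females (2.01% and 2.68%). Averaged over both sexes, 2 were higher and 0 lower (2.47% and 4.89%). With array quality weights the shares rose. For the mean of the sexes 12.7% of the genes were higher and 0% lower (all features 4.06% and 6.59%). In females 9.86% were higher and 0% lower (4.34% and 4.47%), and in males 4.23% and 0% (2.17% and 4.11%). Without the probes of these genes in the loess fit, 2.82% were higher and 0% lower for the mean of the sexes (2.5% and 4.85%). In that fit 4.23% were higher and 0% lower in males (3.07% and 4.07%), and 1.41% and 0% in females (2.01% and 2.66%).

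Under median centring the direction turned. The median gene was then at -0.490 in males, against -0.188 for all features, with 61 of 71 (85.9%) lower at p under 0.05 and 0 higher, where 30.8% of all features were lower and 0.902% higher. In females it was at 0.084 (all features -0.010), and averaged over both sexes at -0.204 (all features -0.101) with 11 lower (15.5%; all features 17.3%). In males it was at -0.026 in the deposited value table, -0.009 with the scanner software's ratio and -0.007 with Cy5 alone. Within slides, the median gene was higher in CR males on 3 of 4 slides that held both groups (-0.117 to 0.135) and in CR females on 4 of 6 (-0.097 to 0.129).

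Rplp2, which with Rplp1 forms the acidic stalk that recruits translation factors to the large subunit, had the smallest p for the mean of the sexes. Control females were at -0.055, -0.126, -0.120, -0.145 and -0.146, and CR females at 0.006, 0.144, 0.207, -0.137 and 0.201. In females 4 of the 5 measured CR pups were above every control pup, and the fifth lay among the controls. Control males lay between -0.0033 and 0.092 with a median of 0.052, and CR males were at 0.088, -0.116, 0.297 and 0.237. The difference was 0.20 ± 0.07 in females (limma adjusted p = 0.991) and 0.14 ± 0.05 when the sexes were averaged (limma adjusted p = 0.588). Under median centring the mean was -0.090. The other stalk protein, Rplp1, stood at 0.12 ± 0.06 (limma adjusted p = 0.731) and at -0.109 under median centring.

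Rpl21 was the other gene at p under 0.05 for the mean of the sexes, at 0.11 ± 0.04 (limma adjusted p = 0.589). Control males lay between -0.18 and 0.055 with a median of -0.062, and the 5 CR males between -0.017 and 0.19 with a median of 0.030. Rps19, a small-subunit protein mutated in Diamond-Blackfan anaemia, was higher in CR males by 0.15 ± 0.07 (limma adjusted p = 0.700) and Rpl21 by 0.13 ± 0.06 (limma adjusted p = 0.700). Rpl24, at the bridge between the subunits, stood at 0.078 ± 0.040 for the mean of the sexes. In males Rpl23, a large-subunit protein that can bind Mdm2, was at 0.18 ± 0.10 and Rps16 at 0.13 ± 0.09. In females Rpl38, known for its part in the translation of Hox mRNAs, was at 0.14 ± 0.08 and Rps21 at 0.18 ± 0.10. The limma adjusted p was 0.726 for Rpl24, 0.742 for Rpl23, 0.785 for Rps16 and 0.991 for Rpl38 and Rps21. Under median centring Rpl21 was at -0.414, Rps19 at -0.464, Rpl23 at -0.388 and Rps16 at -0.437 in males, and Rpl24 at -0.160 for the mean of the sexes. Rps21 in females was at -0.131 under scale normalization.

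Among the genes on the lower side in CR pups, Rpl8, near the site of peptide bond formation, was at -0.14 ± 0.08 for the mean of the sexes (limma adjusted p = 0.770). Rpl3, also at that site, was at -0.11 ± 0.09 and Rpl4, part of the exit tunnel, at -0.051 ± 0.067. Rpl22, a large-subunit protein needed for T cell development, was at -0.10 ± 0.09 in males but on the higher side in females, at 0.12 ± 0.08. Rpl9 stood at -0.078 ± 0.116 in males, and Rpl7a at -0.14 ± 0.09 in females.

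**Figure D3:**
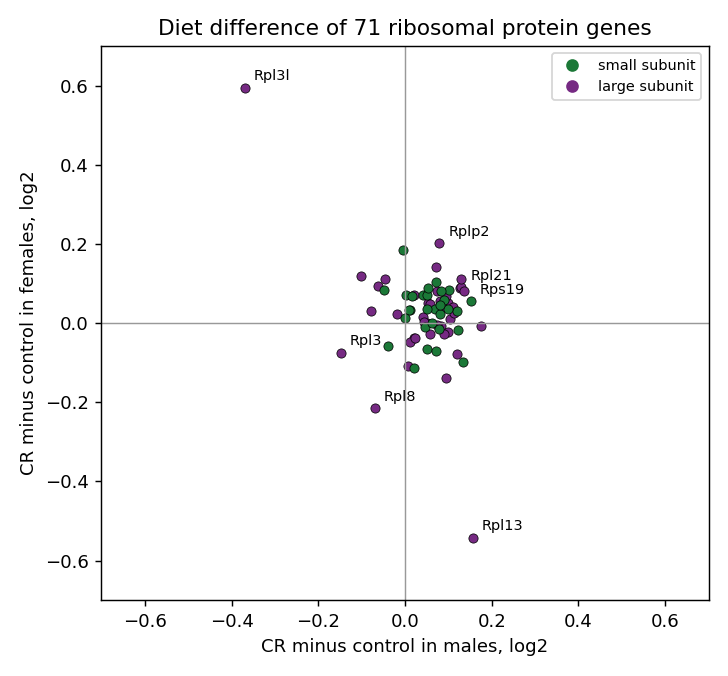
CR minus control difference (log2) in males (horizontal) and in females (vertical) for 71 ribosomal protein genes, 1 point each, green for small-subunit and purple for large-subunit genes. Rpl3l, at -0.37 and 0.59, and Rpl13, at 0.16 and -0.54, lie apart from the other genes.

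The diet effect was then compared between the sexes with an interaction term. The median gene differed by 0.038 (male minus female effect; all features -0.008), and 49 of 71 genes were above 0 (all features 47.4%). At an unadjusted p under 0.05, 0 genes were higher and 1 lower (background 1.92% and 2.71%), and no gene had a limma adjusted p below 0.934. The 1 gene was Rpl3l, the striated muscle relative of Rpl3, at -0.96 ± 0.46 (limma adjusted p = 0.934), from -0.37 ± 0.33 in males and 0.59 ± 0.32 in females. Rpl7a stood at 0.23 ± 0.12, Rps16 at 0.23 ± 0.12, Rpl13 at 0.70 ± 0.42, Rpl22 at -0.22 ± 0.12 and Rpl35a at -0.16 ± 0.13. Under median centring the median gene was at -0.565 (all features -0.161), with 34 lower at p under 0.05 (47.9%; all features 11.5%).

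A pair of genes varied far more than the others within groups. The residual SD was 0.591 for Rpl3l and 0.502 for Rpl13, followed by 0.228 for Rpl3 and 0.202 for Rps23. Among the steadiest were Rps9 (0.0769), Rpl24 (0.0891) and Rpl21 (0.0953). Rpl3l stood in control males between -1.13 and 0.72 with a median of -0.25, and CR males were at -0.467, -1.265, 0.199, -0.495 and -0.867. Control females lay between -1.25 and 0.34 (median -0.75) and CR females between -0.70 and 0.73 (median -0.063). The ranges of all 4 groups overlapped widely.

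Rpl13 took a high or a low level on most arrays. Control males were spread from -0.67 to 0.34 with a median of 0.078, and the 4 measured CR males were at 0.385, -0.877, 0.480 and 0.402. The 4 measured control females were at 0.312, -0.536, 0.143 and 0.382. CR females lay between -0.90 and 0.52 with a median of -0.58. In CR females 5 of 6 arrays held the low level, and in CR males 3 of 4 the high level. The diet difference was 0.16 ± 0.30 in males and -0.54 ± 0.30 in females (limma adjusted p = 0.991). The second probe for Rpl13 stayed between -0.283 and 0.279. Its within-group correlation with the first was 0.29 over arrays, and its differences were 0.078 ± 0.086 in males and -0.044 ± 0.081 in females.

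**Figure D4:**
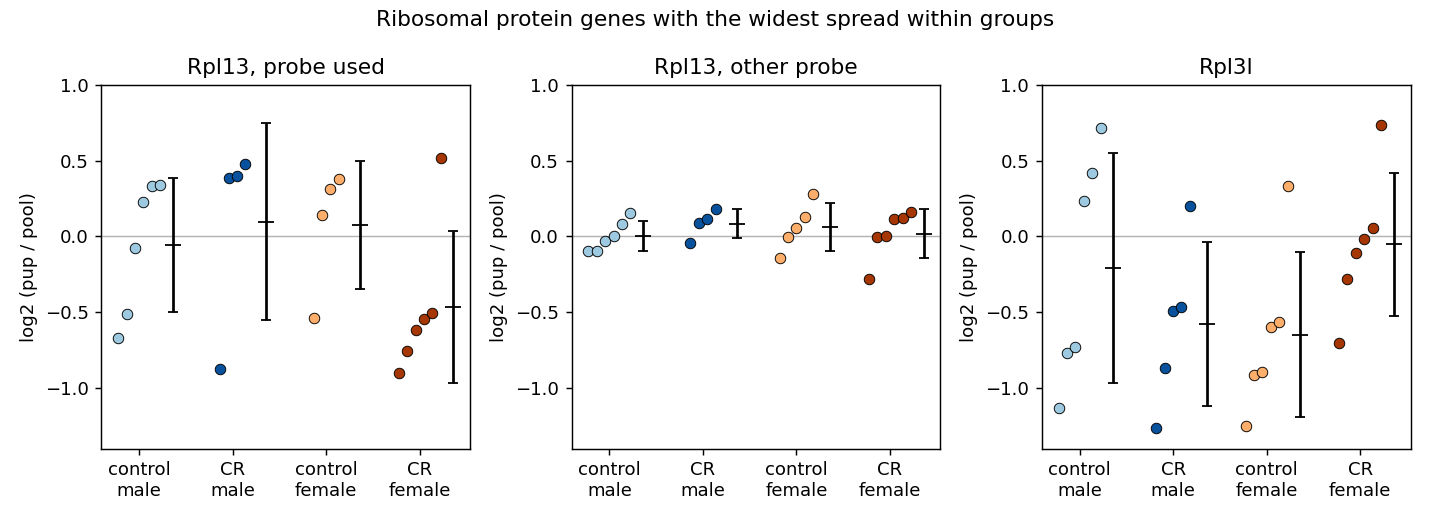
Log2 ratio of pup to pool by group for the probe used for Rpl13 (left), the other Rpl13 probe (middle) and Rpl3l (right), 1 point per array with a measured value, with the mean ± SD beside each group. The first Rpl13 probe lies near 0.4 or below -0.5 on most arrays, while the second stays between -0.283 and 0.279.

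Within groups most ribosomal protein genes shared a part of their variation from array to array. After group means were removed, the mean correlation over pairs of the 71 genes was 0.255, against 0.00313 over pairs of all features and 0.167 over 61 mitochondrial ribosomal protein genes. Cell type markers varied together as much or more in T cells (0.256), neutrophils (0.375), natural killer cells (0.387), monocytes (0.419), B cells (0.589), red cells (0.663) and platelets (0.949), and less in plasma cells (0.0312) and general leukocytes (0.0236). It was 0.321 among small-subunit and 0.215 among large-subunit genes. These are descriptions over 23 arrays that share a pool, slides and a normalization. Each gene was then set against the mean of the others. The median correlation was 0.519, and 68 of 71 were above 0. Rps12 (0.90), Rps21 (0.84), Rpl30 (0.82), Rpl35a (0.80) and Rpl9 (0.80) were among the highest. Rpl23 (-0.38), Rpl3l (-0.10) and Rps26 (-0.06) were below 0.

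Of the 3 genes below 0, Rpl23 and Rps26 carry the CTTTC motif near their start, and Rpl3l does not. Over the 23 promoters with that motif the correlation had a median of 0.58 (-0.38 to 0.84), and over the 35 without it a median of 0.48 (-0.10 to 0.90). Rps12 was not alone with a short run. Rps3 (run of 1, r = 0.76), Rpl36 (run of 2, r = 0.76) and Rplp2 (run of 2, r = 0.74) also followed the others closely. Rpl7a (r = 0.36), Rpl41 (r = 0.30) and Rpl6 (r = 0.18), each with a run of 2, did so less. In Rps12, with a run of 3, CR males were at 0.072, -0.069, -0.012, 0.405 and 0.326, and the 5 measured control females lay between -0.30 and 0.060.

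After loess, the level that the 71 genes shared on an array ran against the level of red cell mRNAs. This relation, and those with the other lists below, were taken on loess values only and were not tested under median centring. The red cell list (6 of 13 genes measured, all 6 above background on every array, with Hbb and Alas2 among them) had a mean between -1.51 and 0.01 in control males and between -1.22 and 0.92 in control females. It lay between -1.19 and 0.49 in CR males and between -1.03 and 1.68 in CR females. With group means removed, its correlation with the mean of the 71 genes was r = -0.72 (permutation p = 0.00186, adjusted over 13 lists 0.0138) and rho = -0.63 (permutation p = 0.00288, adjusted 0.0209), from 100000 two-sided permutations within groups. Without the 2 arrays farthest from the red cell median r was -0.56. Within slides r was below 0 on 6 of 6, but each held only 3 or 4 arrays, too few for its value to be read. Alas2, the haem synthesis enzyme of red cell precursors, was at r = -0.75 and Hbb, beta globin, at r = -0.71.

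**Figure D5:**
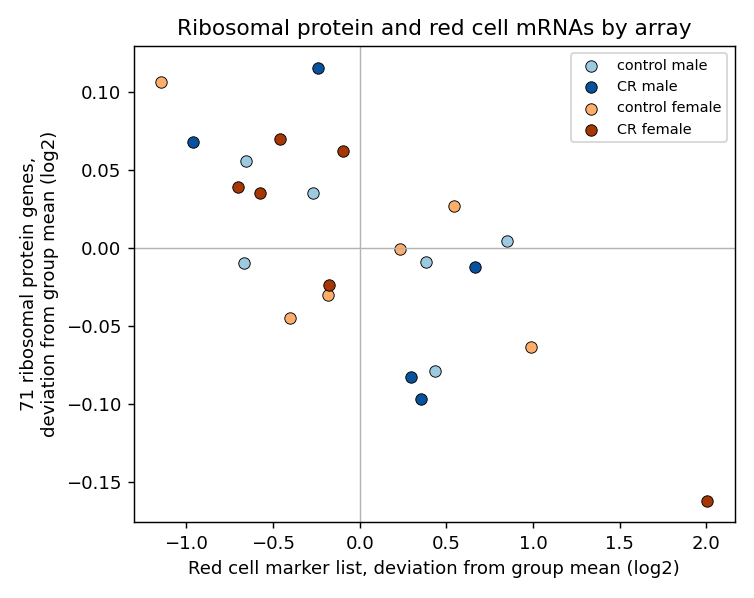
Deviation from the group mean (log2) of the mean over 6 red cell genes (horizontal) and over 71 ribosomal protein genes (vertical), 1 point per array, coloured by group. The array farthest right, CR female 5, is also the lowest, at 2.01 and -0.162.

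A list of 3 general leukocyte genes gave r = -0.68 (permutation p = 0.00212, adjusted 0.0138), where Cd52 was at -0.70, Laptm5 at -0.21 and Coro1a at 0.08. T cell markers (13 of 15) gave 0.35, B cell markers (8 of 12) -0.37, plasma cell markers (5 of 6) -0.35 and monocyte markers (9 of 10) -0.15. Natural killer cell markers (7 of 8) gave 0.03, neutrophil markers (6 of 10) -0.04 and platelet markers (3 of 8) -0.19. None of these 7 had an adjusted permutation p under 0.05. Between the sexes, all 6 red cell genes were lower in males (median -0.397), as were all 8 B cell genes (-0.16). So were all 9 monocyte (-0.105), all 6 neutrophil (-0.122) and all 3 platelet genes (-0.453), where 49% of all features were higher. At an unadjusted p under 0.05, 2 B cell, 1 monocyte and 0 red cell, neutrophil or platelet genes were lower (all features 3.79%). Of the other lists, 8 of 13 T cell, 3 of 7 natural killer cell, 1 of 5 plasma cell and 1 of 3 leukocyte genes were higher in males. Between the diets, all 8 B cell genes were lower in CR pups for the mean of the sexes (median -0.392), 7 of them at p under 0.05 (all features 4.89%). Of the 6 red cell genes, 5 were higher in CR males (median 0.632) and 5 lower in CR females (-0.283), none at p under 0.05. All 7 natural killer cell and all 6 neutrophil genes were also higher in CR males (all features 47.1%), 2 and 1 of them at p under 0.05. In CR females 3 and 5 of these were higher. The part of these cells in the ribosomal protein values was not tested.

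Genes that serve the ribosome were set beside these values for the mean of the sexes, where 2.47% of all features were higher and 4.89% lower at p under 0.05. Of other proteins with TOP mRNAs, 13 of 17 were measured. At p under 0.05, 0 were higher and 1 lower (7.69%), and none was called. Eef2, the factor that moves the ribosome along the mRNA, was the 1, at -0.26 ± 0.11 (limma adjusted p = 0.654). Tpt1 was at 0.11 ± 0.05 and Vim at -0.11 ± 0.06. Eef1b2, an exchange factor of elongation, followed the 71 genes within groups (r = 0.74), and Pabpc1, the poly(A) binding protein, ran against them (r = -0.89). The list as a whole gave r = -0.03.

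Of the ribosome assembly genes 20 of 40 were measured, 1 higher (5%) and 2 lower (10%) at p under 0.05, and none called, near the shares over all features. Grwd1, a histone-binding protein linked to large-subunit assembly, was at -0.26 ± 0.06 (limma adjusted p = 0.485), Bysl at -0.16 ± 0.08 and Nmd3, which carries the large subunit out of the nucleus, at 0.093 ± 0.045. Of the genes that control TOP mRNAs and the S6 kinases 18 of 23 were measured, with 0 higher and 2 lower (11.1%) at p under 0.05 and none called. Akt1 was at -0.21 ± 0.08, Larp1 at -0.19 ± 0.07 and Tsc2, an inhibitor of mTOR, at -0.11 ± 0.06, with limma adjusted p of 0.588, 0.588 and 0.755. Of ribosomal proteins outside the name rule, Fau was at 0.097 ± 0.056 and Rpsa at -0.039 ± 0.057. Mitochondrial ribosomal proteins (61 of 61) had 1 gene higher, Mrpl44 at 0.16 ± 0.05, and 1 lower, Mrpl43 at -0.18 ± 0.07, and Mrps31 was at 0.14 ± 0.08.

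More than 1 probe was measured for 25 of the 71 genes, which left 35 probes not used above. For the sex difference 26 of 35 had the sign of the probe used, and for the diet difference 26 did so in males, 32 in females and 28 when averaged. No pair had opposite signs with both at p under 0.05 for the mean of the sexes. Within groups the other probes followed the used probe with a median correlation of 0.66 (-0.03 to 0.94), lowest for a probe of Rpl15. Ribosomal protein genes have many processed copies in the genome: RefSeq lists 756 pseudogene entries named after the 71 genes, 0 to 33 for a gene. In the design, 10 of the 71 probes lie on another chromosome than the gene does in RefSeq, among them Rpl9, Rpl21, Rpl35a, Rpl36a, Rpl38 and Rpl7a, and signal from copies cannot be told apart from that of the gene.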

How the data were processed

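Agilent rat arrays (design 014879) held 40 ng of RNA per pup with an RNA integrity number above 8.0, per the labels. Spots were read with Agilent Feature Extraction 10.5.1.1, which the submitters' processing notes name. In the files the authors deposited, each spot has an intensity in Cy5 and in Cy3, a log10 ratio normalized between dyes by that software, and other columns with flags. The deposited value table holds log2 values, made by a method not given in the sources used here. It served as an alternative.

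Intensities were corrected with limma's normexp (offset 50), normalized by loess within arrays, and outlier spots set to missing. A probe was kept when above background in Cy5 on at least 50% of the arrays of 1 group (23692 of 41012), and the brightest probe stood for a gene name. limma 3.58.1 in R 4.3.3 fitted the 4 group means to 20178 features, with Benjamini-Hochberg adjustment over all of them and calls at an adjusted p under 0.05. The fit was tested on simulated data. The genes and lists were chosen with earlier results of these data known. Genes are named by rule: the smallest p per direction in every comparison, the X-linked, stalk and muscle-paralog genes, those with the largest and smallest residual SD, and 3 genes of each other list outside the cell markers. Rps12 and the genes singled out by their correlation were chosen after their values were seen. Gene chromosomes, pseudogene entries and promoters are from RefSeq, assembly GRCr8, and probe positions are those of the design, on rn4. Alternatives changed the normalization, the background step, the filter, the probe rule, the weights, the blocks or the arrays, as given in the closing section. Keeping outlier spots was added after the data were seen. Some values of single genes are not reported here.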

Additional observations from a re-analysis of the deposited data

Results flagged for a closer look

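In groups of 4 to 6 values, the highest or lowest array stood far from the others for 9 of 120 combinations of gene and group, where chance flags about 1 in 20. Both the low Rpl13 value of CR male 3 (-0.88, others 0.39 to 0.48, n = 4) and the high one of CR female 3 (0.52, others -0.90 to -0.50, n = 6) belong to the 2 levels described for that probe. Control male 5 was low for Rpl3 (-0.21, others 0.08 to 0.25, n = 6) and for Rpl6 (-0.16, others 0.17 to 0.27, n = 5). Control female 1 was high for Rps16 (0.51, others 0.15 to 0.26, n = 6) and for Rplp2 (-0.05, others -0.15 to -0.12, n = 5). Control male 2 was high for Rps19 (0.17, others -0.06 to -0.01, n = 5), and control female 3 for Rplp1 (0.28, others -0.07 to 0.06, n = 6). The median over those of the 71 genes with a value was low in CR female 5 (-0.17, others -0.03 to 0.05, n = 6), the array with the highest red cell level.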

How the results depend on the processing

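No ribosomal protein gene was called by limma in any of the 5 comparisons under any alternative run. Counts of all features called changed from 0 to 1 in males with the replicate block, from 0 to 2 for the mean of the sexes with array quality weights, and from 12 to 6 between the sexes when signal on all arrays was required. Without single arrays they ran from 0 to 4 in males, 0 to 3 for the mean of the sexes, 0 to 0 in females and for the interaction, and 10 to 12 between the sexes, the highest diet counts without CR male 2. The count of genes at an unadjusted p under 0.05 between the sexes, in either direction, was 18 in the main fit. It became 8 with no background correction, 6 with the scanner software's ratio, 1 with median centring (lower in males), 4 with Cy5 alone and 7 in the deposited value table. It ran from 9 (without CR male 5) to 24 (without CR male 2) on leaving out single arrays. The share higher in males, 25.4% in the main fit, rose under other alternatives. It was 35.2% with array quality weights, 29.6% with loess without ribosomal protein probes and 28.2% with no signal filter (all features 2.69%, 3.7% and 3.19%). With median centring the median difference moved to -0.49 in males, -0.565 for the interaction and -0.204 when the sexes were averaged, and the sex difference moved to -0.089. In the deposited value table it moved to -0.026 in males and -0.075 for the interaction, and with scale normalization to 0.154 for the interaction. In females scale normalization gave -0.035. Without single arrays the median ran from 0.036 (without control male 4) to 0.090 in males, 0.007 (without control female 4) to 0.061 (without CR female 5) in females, 0.030 to 0.057 for the mean, 0.004 (without CR male 4) to 0.060 (without CR male 2) for the interaction and 0.057 to 0.095 between the sexes.

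Of 1554 values of named genes under alternatives, 28 had the other sign, none of them on leaving out an array. With median centring these were, in males, Rpl21 (-0.414), Rps19 (-0.464), Rpl23 (-0.388) and Rps16 (-0.437). For the mean of the sexes they were Rplp2 (-0.090), Rpl21 (-0.132), Rps19 (-0.249), Rpl24 (-0.160), Rplp1 (-0.109) and Rpl3l (-0.131). For the interaction they were Rpl7a (-0.391), Rps16 (-0.445) and Rpl13 (-0.015), and between the sexes Rps20 (-0.003), Rpl36a (-0.063) and Rps4x (-0.132). With Cy5 alone, Rps16 (-0.167) and Rpl9 (0.005) changed sign in males, Rpl24 (-0.047) and Rplp1 (-0.090) for the mean, Rps16 (-0.100) and Rpl35a (0.005) for the interaction, and Rpl36a (-0.054) between the sexes. With scale normalization it was Rps21 in females (-0.131), Rpl3l for the mean (-0.073) and Rpl7a between the sexes (0.018). The mean over probes turned Rpl15 between the sexes (0.010), and keeping outlier spots turned Rpl9 in males (0.031). The cause was not tested.

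Replicate numbers did not pair the samples: deviations of same-numbered arrays had correlations of -0.42 to 0.46, over 0.1 in 14 of 33 pairs. With the replicate number as a block the median difference was 0.065 in males, 0.033 in females, 0.041 for the mean and 0.079 between the sexes, with 19 genes at p under 0.05 there. The number of arrays and the 5 CR dams limit what could be called.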
